A study of Mus musculus with 6 samples.

Results

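The expression of 10 genes of the fibrous and adhesive extracellular matrix was compared in primary mouse chondrocytes with and without knockdown of Pkm2, the M2 isoform of the glycolytic enzyme pyruvate kinase. They were chosen by name out of 55416 in the deposited table, with earlier results of these data known. They comprise the fibrillar collagen chains Col1a1, Col1a2, Col3a1, Col5a1 and Col5a2, the adhesion protein Fn1, and the matricellular genes Tnc, Postn, Sparc and Thbs1. Sparc and Thbs1 fell in all 3 replicate pairs, Sparc 4.38-fold and Thbs1 2.18-fold, while the type V collagen chains among the 10 rose, Col5a2 1.90-fold and Col5a1 1.44-fold. These 4 calls were made within replicate pairs, where 23.1% of all 15269 genes tested passed. Without replicate 1 or without replicate 3, no gene in the whole table passed this paired fit. In the edgeR test without pairing, no gene of the 10 passed, and neither did any other gene tested. For the chains of type I collagen, type III collagen, Fn1, Tnc and Postn, the differences did not pass in either edgeR fit.

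The cells were chondrocytes of neonatal mouse knee joints according to the labels, and they were grown in DMEM/F12 with serum. The study cites an earlier report for this sequencing, and its own culture methods describe mice 8 to 10 weeks old. Of the 6 cultures, 3 received a scrambled control siRNA (siNC) and 3 received an siRNA against Pkm2 (siPkm2). The study's own methods give 50 nM siRNA with the knockdown checked at 48 hours. Whether these settings hold for the sequenced cultures is not stated there. The sample names give siPkm2 for all 3 treated libraries, but the genotype entries of replicates 2 and 3 carry other PKM numbers. The study states in general terms that its experiments were independent repeats, but whether the sequenced replicates were separate isolations of cells is not stated, so p-values measure the spread between these libraries, which may be technical.

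Each library held 22317065 to 25691096 estimated counts, and 15269 genes were tested. Levels are given as TPM, a count adjusted for transcript length and scaled to the same total in each library, so that genes can be compared. Pkm, the targeted gene, had a TPM of 1654, 2209 and 1293 in siNC replicates 1, 2 and 3 and of 245, 428 and 231 in siPkm2 replicates 1, 2 and 3. It did not overlap between groups, and its log2 fold change within pairs was -2.53 (SE 0.13, adjusted p = 0.00932 by edgeR's quasi-likelihood test, and 0.0738 without a block). The values of Pkm are per gene and do not tell the M2 isoform from others. Replicate 2 stood apart from the others in both groups. There the summed TPM of 12 inflammatory genes was 36117 in siNC and 34199 in siPkm2, against 303 to 439 in the other 4 libraries, and the summed TPM of 15 cartilage matrix genes was 4771 and 6414, against 18607 to 23693. Libraries with the same number deviated together from their group means, so each result is given both without pairing and with the replicate number as a block, which compares siPkm2 with siNC inside each pair.

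Fibrillar collagens are trimers whose chains assemble in the secretory pathway and pack into fibres outside the cell. Cartilage fibrils are built mainly from type II collagen, and chondrocytes that lose their phenotype in monolayer culture are known to shift towards type I and type III collagen and fibronectin, as fibroblasts do. Type V collagen is a minor component that nucleates type I fibrils, and matricellular proteins such as tenascin C, periostin, SPARC and thrombospondin 1 bind matrix, receptors and growth factors and modulate adhesion without forming the main scaffold.

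Several fibrillar collagen transcripts are textbook targets of the miR-29 family, microRNAs that lower the amount of their target transcripts. The 3 mature mouse members from RefSeq (GRCm38.p6) are shown because Col5a1 and Col5a2, which rose, carry their site. Capitals mark the seed, bases 2 to 8, which is the same in all 3.
mmu-miR-29a-3p: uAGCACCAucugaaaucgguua
mmu-miR-29b-3p: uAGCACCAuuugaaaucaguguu
mmu-miR-29c-3p: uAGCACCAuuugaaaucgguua

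The complement of that seed, TGGTGCT, was searched on the transcript strand in the longest annotated 3′ UTR of each gene (GENCODE M21 on GRCm38). It occurred in 4 of the 10 genes (40.0%), all of them fibrillar collagen chains, against 2125 of 13307 tested genes with an annotated 3′ UTR (16.0%) and 895 of 6274 with a 3′ UTR in the length range of the 10 (14.3%). Col5a1 held 4 sites, and 1 of the 10 genes against 2.59% of tested genes held more than 1. The sites are shown with 7 bases on each side and the match in capitals, Col5a1 from its first to its last.
Col1a1, chr11:94952531-94952551, plus strand: gaatttcTGGTGCTatagaag
Col3a1, chr1:45348975-45348995, plus strand: gtctcaaTGGTGCTataataa
Col5a1, chr2:28037997-28038017, plus strand: gaacattTGGTGCTgaatttt
Col5a1, chr2:28038027-28038047, plus strand: tctcttgTGGTGCTatgtgtc
Col5a1, chr2:28038343-28038363, plus strand: atgtttgTGGTGCTaatctct
Col5a1, chr2:28038715-28038735, plus strand: gtcactcTGGTGCTtgtgtcc
Col5a2, chr1:45374959-45374979, minus strand: ttaatgaTGGTGCTaaaatta

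The match was absent from the annotated 3′ UTRs of Col1a2, Fn1, Tnc, Postn, Sparc and Thbs1. Of the 4 genes with a site, Col5a1 and Col5a2 rose within pairs by edgeR, as did 12.3% of all genes, and Col1a1 and Col3a1 did not pass. The 2 genes that fell, Sparc and Thbs1, had none. The same holds for Col1a2, Fn1, Tnc and Postn, which did not pass, and for most tested genes. The search was chosen after the expression values were known, the microRNAs themselves were not measured, and a match of letters is not evidence that the site is used.

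Promoter sequence was at hand in RefSeq (GRCm38.p6) for 6 of the 10 genes and not for Col1a1, Col5a2, Fn1 or Thbs1. The 250 bases before the start of Sparc, which fell most, and of Col5a1, which rose, are shown 5′ to 3′ on the gene's strand. The RefSeq start of Sparc used here lies inside the longer GENCODE span given for the gene below, downstream of its 5′ end. Capitals mark GC boxes (GGGCGG on either strand).
Sparc, chr11:55420081-55420330, minus strand: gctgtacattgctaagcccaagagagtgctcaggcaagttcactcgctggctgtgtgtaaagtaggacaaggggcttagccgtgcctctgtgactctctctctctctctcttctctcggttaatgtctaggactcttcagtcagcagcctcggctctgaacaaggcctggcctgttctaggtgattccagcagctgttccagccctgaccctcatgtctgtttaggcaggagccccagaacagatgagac
Col5a1, chr2:27886175-27886424, plus strand: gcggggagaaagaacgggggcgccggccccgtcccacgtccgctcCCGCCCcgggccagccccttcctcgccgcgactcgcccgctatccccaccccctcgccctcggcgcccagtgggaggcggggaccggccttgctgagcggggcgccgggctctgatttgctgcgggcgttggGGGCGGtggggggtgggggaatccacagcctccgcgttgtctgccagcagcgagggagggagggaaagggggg

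The Col5a1 window held 2 GC boxes, 205 and 73 bases before the start, and 76.4% of its bases were G or C, against a median of 52.4% over all promoters of this length. The Sparc window was 54.0% G or C and held none of the 6 motifs searched on both strands. Of all 32851 promoters, 12.4% held TATAAA, 33.9% held CCAAT, 32.7% held GGGCGG, 6.75% held the AP-1 site TGANTCA, 12.6% held the TEAD site GGAATG and 1.47% held a CArG box. Among the other members, Col3a1, Tnc and 1 of the 2 starts of Postn held TATAAA, Col3a1 also held the TEAD site and Tnc a GC box, and Col1a2 held CCAAT and GC boxes. No match says only that these letters are not in this window.

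**Figure D1:**
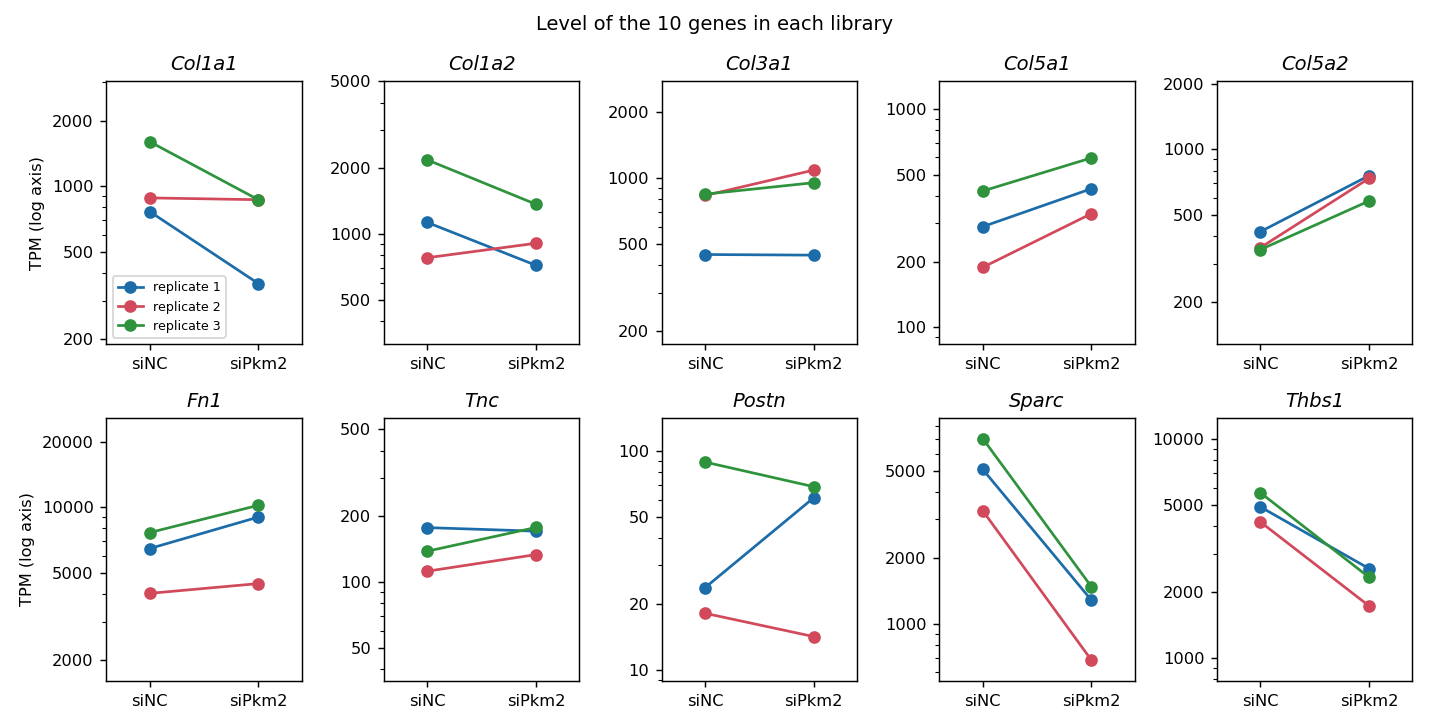
TPM of the 10 genes on log axes in siNC and siPkm2, with 1 point per library and a line joining libraries of the same replicate number. Col1a1, Sparc and Thbs1 go down and Col5a1, Col5a2 and Fn1 go up on all 3 lines, and the groups do not overlap for Col5a2, Sparc and Thbs1.

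Type I collagen, the main fibre of bone, tendon and skin, is a trimer with 2 chains from Col1a1 and 1 from Col1a2. Col1a1 (chr11:94936224-94953042, plus strand, 51 exons) had a TPM of 766, 885 and 1600 in siNC replicates 1, 2 and 3 and of 359, 868 and 868 in siPkm2 replicates 1, 2 and 3. The lowest value was siPkm2 replicate 1 and the highest siNC replicate 3, and the groups overlapped. Within pairs the log2 difference of CPM, counts scaled to library size with TMM factors and the scale of every pair difference and fitted value given for a gene here, was -1.07, 0.04 and -0.81, so that replicate 2 differed little, up in CPM and down in TPM. The fitted log2 fold change was -0.59 (SE 0.44, adjusted p = 0.541) without a block and -0.62 (SE 0.23, adjusted p = 0.111) with it, both by edgeR's quasi-likelihood test, and it passed in DESeq2 with the block (-0.61, adjusted p = 0.0205).

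Col1a2 (chr6:4504814-4541544, plus strand) encodes the partner chain. Its TPM was 1131, 780 and 2186 in siNC and 720, 909 and 1370 in siPkm2. It shared the pattern of Col1a1, since pairs 1 and 3 differed by -0.66 and -0.60 on the log2 scale and pair 2 by 0.29, and the groups overlapped. The fitted log2 fold change was -0.41 (SE 0.46, adjusted p = 0.705), and -0.32 with the block (SE 0.22, adjusted p = 0.315). Without siNC replicate 3, the library with the highest level, it was 0.08.

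Type III collagen, a homotrimer of Col3a1 chains that accompanies type I collagen in soft connective tissue, did not share that pattern. Col3a1 (chr1:45311538-45349706, plus strand) had a TPM of 448, 834 and 846 in siNC and of 445, 1090 and 954 in siPkm2. Replicate 1 was the lowest in both groups, and the groups overlapped. The pairs differed by -0.01, 0.46 and 0.25, and the fitted log2 fold change of 0.28 (SE 0.40, adjusted p = 0.772) was 0.23 with the block (SE 0.13, adjusted p = 0.242).

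Col5a1 and Col5a2 encode chains of type V collagen, which initiates collagen fibrils and limits their width. Col5a1 (chr2:27886425-28039514, plus strand) had a TPM of 289, 188 and 420 in siNC and of 431, 331 and 596 in siPkm2. The groups overlapped, but each siPkm2 library lay above the siNC library of its own number, by 0.42, 0.72 and 0.45 on the log2 scale. The log2 fold change was 0.50 (SE 0.37, adjusted p = 0.539) without a block and passed with it, at 0.53 (SE 0.11, adjusted p = 0.0283).

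Col5a2 (chr1:45374321-45503282, minus strand) had a TPM of 420, 355 and 348 in siNC and of 758, 736 and 580 in siPkm2. All 3 siPkm2 libraries were above all 3 siNC libraries, with means of 692 ± 96.9 and 374 ± 39.9 (SD, n = 3 each). The log2 fold change was 0.92 (SE 0.24, adjusted p = 0.152 by edgeR's quasi-likelihood test without a block), and it passed with the block at 0.93 (SE 0.12, adjusted p = 0.0133) and in DESeq2 without a block (adjusted p = 0.00690). Col5a2 lies next to Col3a1 on the opposite strand, the genes ending towards each other with 24614 bases between them, and Col3a1 did not pass.

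Fn1 (chr1:71585520-71653200, minus strand) encodes fibronectin, an adhesive glycoprotein bound by integrins and needed for the assembly of collagen fibres. It had the highest group mean of the 10 genes in both groups, with a TPM of 6478, 4040 and 7664 in siNC and of 9025, 4478 and 10215 in siPkm2, and it ranked 2nd to 19th among all genes of a library. Replicate 2 was the lowest of each group, and the groups overlapped. All 3 pairs were higher in siPkm2, by 0.49, 0.25 and 0.50 on the log2 scale. The log2 fold change of 0.45 (SE 0.51, adjusted p = 0.708) did not pass, nor did 0.41 with the block (SE 0.16, adjusted p = 0.121), both by edgeR, while DESeq2 with the block did call it (0.42, adjusted p = 0.00217).

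Tnc (chr4:63959785-64047015, minus strand) encodes tenascin C, an anti-adhesive glycoprotein of developing and injured tissue. Its TPM was 178, 112 and 139 in siNC and 171, 134 and 178 in siPkm2, with replicate 2 lowest in both groups and wide overlap. The pairs differed by -0.05, 0.34 and 0.43, and the log2 fold change was 0.21 (SE 0.27, adjusted p = 0.746), or 0.24 with the block (SE 0.12, adjusted p = 0.200). Postn (chr3:54361109-54391037, plus strand) encodes periostin, which supports collagen crosslinking in periosteum and ligament, and was the lowest and most variable of the 10. Its TPM was 23.7, 18.1 and 89.1 in siNC and 61.2, 14.2 and 68.7 in siPkm2. Only replicate 1 was higher in siPkm2, by 1.36 on the log2 scale, against -0.32 and -0.26 in replicates 2 and 3. The log2 fold change of 0.23 (SE 0.78, adjusted p = 0.914) was 0.25 with the block (SE 0.35, adjusted p = 0.623).

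Sparc (chr11:55394500-55423183, minus strand, 10 exons) encodes SPARC or osteonectin, a collagen-binding glycoprotein that assists the handling of procollagen at the cell surface. Its TPM was 5082, 3288 and 7030 in siNC and 1283, 682 and 1478 in siPkm2. Every siPkm2 library lay far below every siNC library, with means of 1147 ± 415 and 5133 ± 1871 (SD, n = 3 each), and replicate 2 was the lowest of both groups. The pairs were almost alike, at -2.01, -2.21 and -2.18 on the log2 scale. The log2 fold change was -2.12 without a block (SE 0.45, adjusted p = 0.125 by edgeR's quasi-likelihood test) and -2.13 with it (SE 0.12, adjusted p = 0.00932), and in DESeq2 without a block the adjusted p was 6.35e-05. Sparc ranked 10th to 31st among all genes in siNC libraries and 112th to 231st in siPkm2 libraries.

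Thbs1 (chr2:118111876-118127133, plus strand, 22 exons) encodes thrombospondin 1, which binds CD36, CD47 and integrins and can activate latent TGF-beta. Its TPM was 4903, 4184 and 5692 in siNC and 2560, 1728 and 2337 in siPkm2. The groups did not overlap, with means of 4926 ± 754 and 2209 ± 431 (SD, n = 3 each). The pairs differed by -0.95, -1.21 and -1.21 on the log2 scale. The log2 fold change was -1.11 without a block (SE 0.34, adjusted p = 0.185 by edgeR's quasi-likelihood test) and -1.12 with it (SE 0.15, adjusted p = 0.0134), and DESeq2 gave an adjusted p of 0.00404. Its rank among all genes went from between 15 and 20 in siNC to between 51 and 84 in siPkm2.

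**Figure D2:**
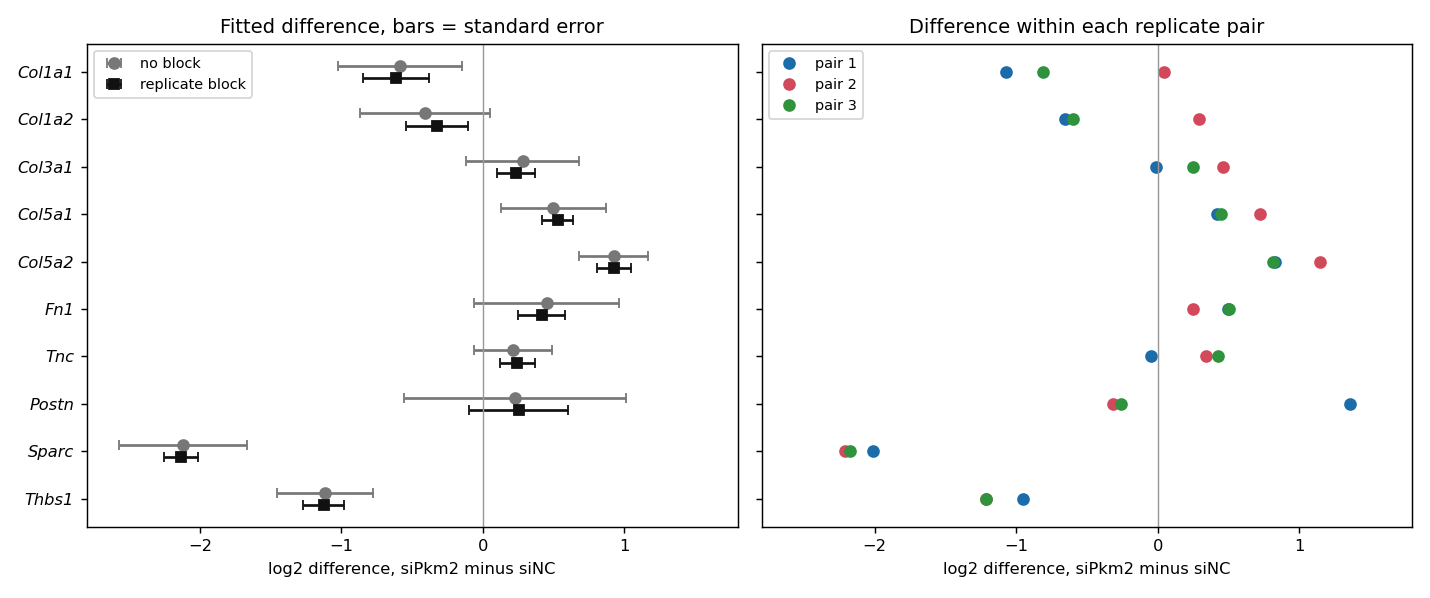
Log2 difference of siPkm2 minus siNC for each gene, on the left as fitted by edgeR without a block (grey circles) and with the replicate block (black squares), with bars of 1 standard error, and on the right within each replicate pair. The Sparc and Thbs1 pairs lie close together below 0, at -2.01 to -2.21 and -0.95 to -1.21, while the Postn pairs spread from -0.32 to 1.36.

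Read as a list, the 10 genes did not move one way. Without a block 0 of the 10 passed an adjusted p of 0.05 by edgeR, where 0% of all 15269 genes tested passed, although 2690 genes and 3 of the 10 (Col5a2, Sparc and Thbs1) had an unadjusted p under 0.05. The same 3 genes passed DESeq2 without a block, against 5.12% of the genes it tested. In DESeq2 with the block 6 of the 10 passed, Col1a1 and Fn1 beside the 4 genes called by edgeR, against 26.5% of all genes it tested. With the replicate block in edgeR 2 of the 10 genes passed as higher and 2 as lower, where 12.3% of all genes passed as higher and 10.8% as lower (23.1% in either direction). Sparc and Thbs1 were also past a 2-fold change, as were 5.83% of all genes. The groups did not overlap in TMM-scaled CPM for 3 of the 10, against 24.3% of all genes. The median log2 fold change of the 10 was 0.22 without a block and 0.24 with it, against -0.02 and -0.01 over all genes tested. Within pairs 1, 2 and 3 the median log2 difference of the 10 was -0.03, 0.27 and -0.006, above 0 only in pair 2. Over all genes it was -0.02, 0.005 and -0.004.

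The paired calls depended on which pairs were kept. Without replicate 2, 7 of the 10 passed by edgeR with the block, where 39.1% of all genes passed, and the added genes were Col1a1 at -0.95 (adjusted p = 0.00155), Col1a2 at -0.64 (adjusted p = 0.00486) and Fn1 at 0.49 (adjusted p = 0.0257). Without replicate 1 or without replicate 3, no gene in the whole table passed. The log2 fold changes of the 4 called genes held their size in those fits. Sparc was -2.19 without replicate 1 (adjusted p = 0.0642) and -2.11 without replicate 3 (adjusted p = 0.0799), and Thbs1 was -1.21 (adjusted p = 0.0662) and -1.08 (adjusted p = 0.106). For Col5a2 the values were 0.98 (adjusted p = 0.0731) and 0.99 (adjusted p = 0.1005), and for Col5a1 they were 0.58 (adjusted p = 0.115) and 0.57 (adjusted p = 0.154).

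The order of the levels changed with the fall of Sparc and Thbs1. In siNC the mean TPM ran from Fn1 (6061) through Sparc (5133) and Thbs1 (4926), whose ranges overlapped, to a separate group of Col1a2 (1366), Col1a1 (1084) and Col3a1 (709). Below these came Col5a2 (374) and Col5a1 (299), which overlapped each other, then Tnc (143) and Postn (43.6), each without overlap with its neighbour. In siPkm2 Fn1 (7906) stood alone above Thbs1 (2209), and Sparc (1147) lay among the collagen chains, its range overlapping that of Col1a2 (1000). From there to Col5a1 (453) each gene overlapped the next, and Tnc (161) and Postn (48.0) again came last.

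Together the 10 genes made up 1.98%, 1.48% and 2.62% of all TPM in siNC and 1.59%, 1.10% and 1.87% in siPkm2, lower in each pair. This difference lay in Sparc and Thbs1, whose summed TPM was 9985, 7472 and 12721 in siNC and 3843, 2410 and 3815 in siPkm2. The other 8 genes together were higher in each pair, at 9734, 7213 and 13292 in siNC and 11970, 8560 and 14831 in siPkm2. Fn1 alone made up most of these sums, at 6478, 4040 and 7664 in siNC and 9025, 4478 and 10215 in siPkm2. The 5 collagen chains alone summed to 3054, 3043 and 5400 and to 2713, 3934 and 4369, with pair 2 going up and pairs 1 and 3 going down. In bulk RNA, fewer cells that express a gene and less of its RNA per cell cannot be told apart.

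Across the 6 libraries, which share group and replicate structure, some members ran in parallel on the log2 CPM scale. The Pearson r was 0.99 for Sparc with Thbs1, 0.92 for Col5a1 with Fn1 and 0.76 for Col1a1 with Col1a2. Col5a2 ran against Sparc (r = -0.83) and Thbs1 (r = -0.81). The genes most like Col1a1 among those with a mean CPM of at least 10 were Vamp2 (r = 0.997), Gm11747 (r = 0.995), Mbd5 (r = 0.993), Fam126a (r = 0.986) and Pkd2 (r = 0.984), over 6 libraries and as a description only. Of the 10 genes, 6, namely Col5a1, Fn1, Tnc, Postn, Sparc and Thbs1, had their lowest level in replicate 2 of both groups, the pair with the high inflammatory and low cartilage gene levels, and the part of that difference between cultures in the results was not tested.

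The ratio of type I to type II collagen transcript is a common index of chondrocyte dedifferentiation. The TPM of Col1a1 divided by that of Col2a1 was 0.0683, 0.294 and 0.134 in siNC and 0.0403, 0.226 and 0.0960 in siPkm2. It was lower with siPkm2 in each pair, by 0.76, 0.38 and 0.48 on the log2 scale, but the groups overlapped, since replicate 2 was high in both. The mean log2 difference of -0.54 gave p = 0.6 when the 6 libraries were regrouped in every way (exact permutation, two-sided), where 0.1 is the smallest p possible, and the adjusted p over 4 ratios was 0.6. Flipping the signs of the 3 pair differences gave p = 0.25, the smallest that exact test allows. Without siPkm2 replicate 1 the log2 difference was 0.08.

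Among the other ratios, Col3a1 to Col1a1 was the only one of the 4 whose groups did not overlap. It was 0.584, 0.942 and 0.529 in siNC and 1.24, 1.25 and 1.10 in siPkm2, so that type III transcript exceeded that of the type I chain in all 3 siPkm2 libraries and in no siNC library. The log2 difference was 0.85, and it was 1.08, 0.41 and 1.06 within pairs 1, 2 and 3. The exact permutation test gave p = 0.1 and an adjusted p of 0.4. Since 0.1 is the smallest p that test allows here, it could not pass whatever the values, and no conclusion is drawn from it. Col1a1 to Col1a2 had means of 0.848 ± 0.2495 in siNC and 0.696 ± 0.235 in siPkm2 (SD, n = 3 each, exact permutation p = 0.4, adjusted p = 0.6). Col5a1 to Col5a2 had means of 0.809 ± 0.356 and 0.681 ± 0.305 (SD, n = 3 each, exact permutation p = 0.6, adjusted p = 0.6). Both were lower with siPkm2 in each pair, although the group means differed by less than the SD within either group. The log2 differences within pairs were -0.44, -0.25 and -0.21 for Col1a1 to Col1a2 and -0.27, -0.24 and -0.24 for Col5a1 to Col5a2. Flipping the signs of the pair differences gave p = 0.25 for each, the smallest that exact test allows.

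**Figure D3:**
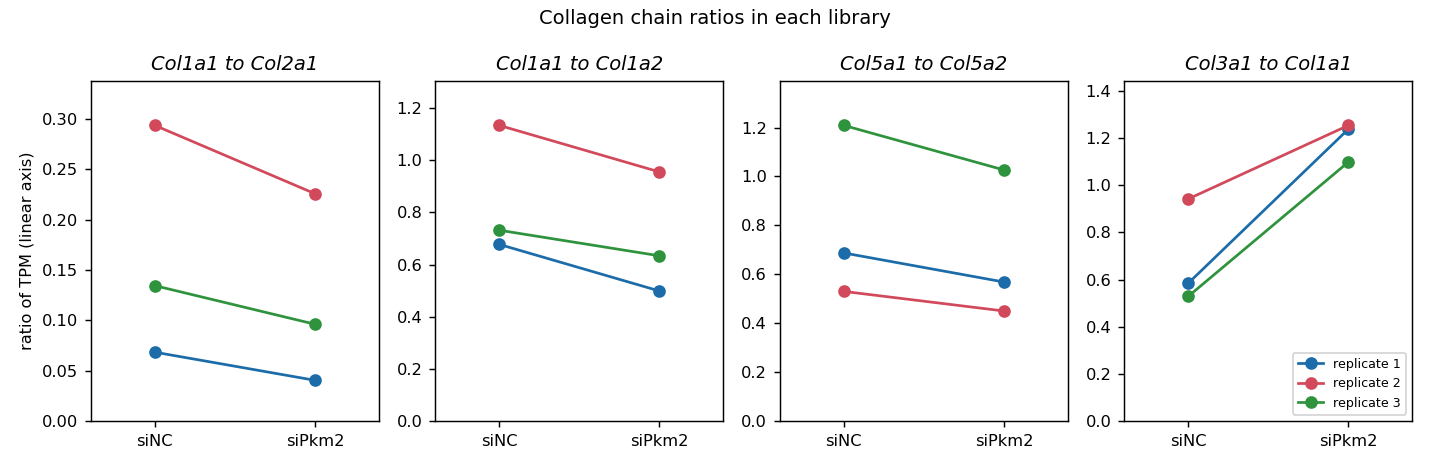
Ratios of TPM between collagen chains in each library on linear axes starting at 0, with lines joining libraries of the same replicate number. Col3a1 to Col1a1 lies between 0.529 and 0.942 in siNC and between 1.10 and 1.25 in siPkm2, while the other ratios overlap between groups.

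Genes with related roles were counted in the same fits, and without a block 0 genes of any list passed by edgeR, although up to 8 of a list had an unadjusted p under 0.05 and up to 6 passed DESeq2. The counts with the block stand against 12.3% of all genes that passed as higher and 10.8% as lower. Of 25 further fibril, fibre and adhesive matrix genes, 4 passed as higher and 10 as lower with the block (median log2 fold change -0.19). Vcan, the large proteoglycan versican, rose by 1.57 on the log2 scale. Fbn2, a fibrillin of elastic microfibrils, fell by 2.36, Spp1, which encodes osteopontin, fell by 1.24, and Thbs2, the closest relative of Thbs1 in the list, fell by 0.74. Of 18 receptors for matrix, 5 passed as higher and 4 as lower. Of the 6 collagen receptors among them, Ddr2 (-0.81) and Itga11 (-1.09) fell, as did Itga1 (-0.71), Itga2 rose (1.24), and Ddr1 (0.07) and Itga10 (0.05) did not pass, the last 4 being named after their values were seen. Itgb8, an integrin chain that takes part in TGF-beta activation, and the syndecan Sdc4, which binds fibronectin, rose by 1.34 and 0.98.

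Of 12 fibroblast and contractile markers used for dedifferentiated cells, 1 passed as higher and 5 as lower with the block, and the median log2 fold change was -0.57. The smooth muscle genes Cnn1 (-2.66), Tagln (-2.15) and Myl9 (-1.998) fell, and their groups did not overlap. Acta2 (-1.76) and Pdgfrb (-0.46) fell too, while Vim (-0.29), Thy1 (-0.92) and Pdgfra (-0.38) did not pass, these being named after their values were seen. S100a4, a calcium-binding protein of motile fibroblasts, rose by 0.63. Of 13 genes of the TGF-beta and YAP-SRF responses, 0 passed as higher and 3 as lower, and these were the ligand Tgfb3 (-0.64), its receptor Tgfbr1 (-0.53) and the matricellular gene Ccn1 (-0.46). Of 18 genes of collagen assembly, 3 passed as higher and 1 as lower. For these last 2 lists the share that passed was close to the 23.1% of all genes. The lysyl hydroxylase Plod2 (0.81), the procollagen N-proteinase Adamts2 (0.61) and the prolyl 3-hydroxylase P3h1 (0.41) rose, and the prolyl 4-hydroxylase subunit P4ha2 (-0.46) fell.

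Markers of the labelled cell type were present in every library. Col2a1, the type II collagen chain, had a TPM of 3015 to 11904 in siNC and 3847 to 9040 in siPkm2. Its log2 fold change with the block was -0.08 (adjusted p = 0.801), but pairs 1, 2 and 3 differed by -0.35, 0.43 and -0.32. Acan, the core protein of aggrecan, was at 0.58 (adjusted p = 0.0567), with pairs at 0.40, 1.01 and 0.34. Sox9, the chondrocyte master regulator, was at -0.04 (adjusted p = 0.912), with pairs at -0.32, 0.63 and -0.42. For Col2a1 and Sox9, replicate 2 thus went against the others. Of 15 cartilage matrix genes, 3 passed as higher and 0 as lower, namely Col9a3 (0.63), Matn3 (0.86) and Prg4, which encodes lubricin (2.15), a share close to the 23.1% of all genes that passed in either direction. Of Sox5, Sox6 and Sox9, only Sox5 passed, at -0.41.

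**Figure D4:**
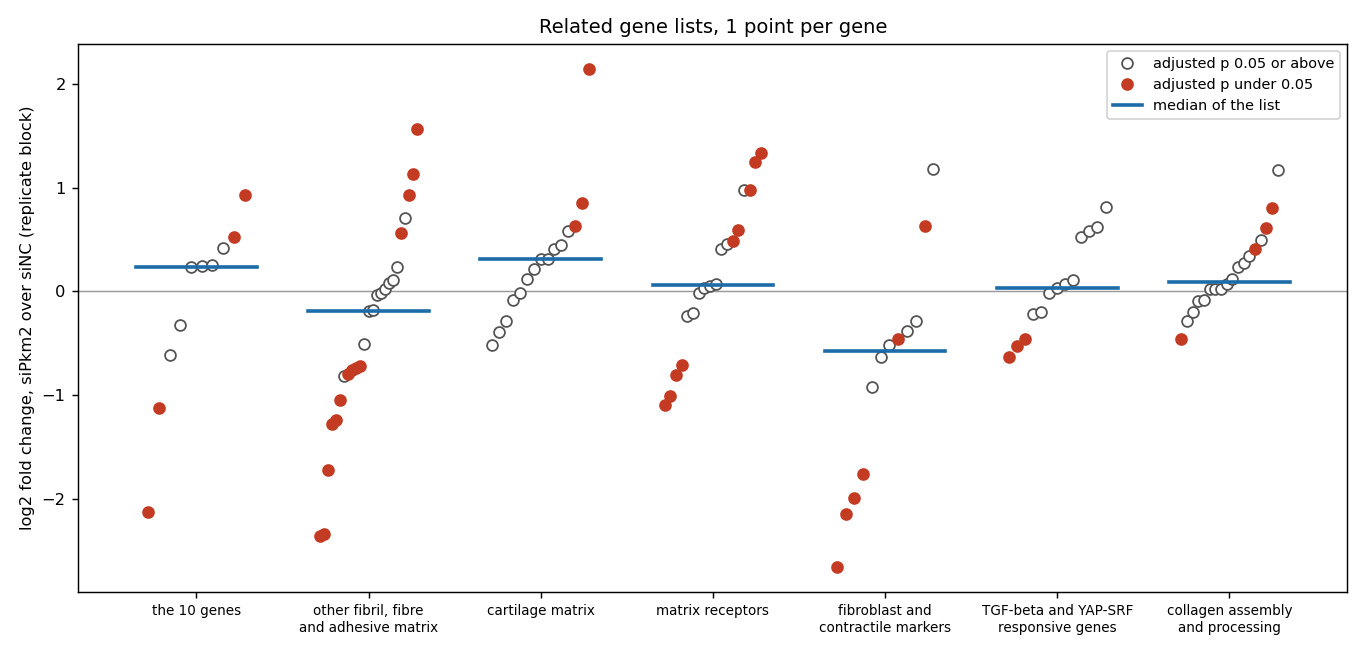
Log2 fold change with the replicate block of each tested gene in the 10-gene set and 6 related lists, filled where the adjusted p was under 0.05, with a bar at the median of each list. The points of the 10 genes run from -2.13 to 0.93 on both sides of 0, and the median of the fibroblast and contractile markers is -0.57.

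Markers of other cells were counted in the fit with the block, in which 23.1% of all genes passed in either direction. Of 7 osteoblast markers tested of 9 listed, 1 passed, Ibsp (bone sialoprotein), at -1.45, and the summed TPM of the list was 65.2 to 349 in siNC and 61.1 to 147 in siPkm2. Of 7 synovial fibroblast and tendon markers tested of 8, Fmod (-0.93) and Mkx (-0.82) passed as lower and Cd34 (0.49) as higher, and their sum was 375 to 923 in siNC and 232 to 459 in siPkm2. Macrophage markers summed to at most 118 TPM, nearly all of it Cd68 and Cd14, with Ptprc and Fcer1g at or near 0, and Cd14 passed as higher (1.35). Endothelial markers summed to at most 3.15 TPM and none passed with the block, with Vwf at 0.73 and Tek at 1.00. Muscle markers summed to at most 7.36 TPM, and Des passed as higher (2.46). Every listed gene had a TPM above 0 in at least 1 library. The part of cell composition in the fall of Sparc and Thbs1 was not tested.

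Interferon-stimulated and inflammatory genes were counted in the same way. Of 10 interferon-stimulated genes 4 passed as higher with the block, Cxcl10 (2.30), Mx1 (2.55), Bst2 (3.38) and Ifit1 (3.91), and their summed TPM was 61.5, 3030 and 97.9 in siNC replicates 1, 2 and 3 and 2139, 6081 and 1529 in siPkm2. Of 10 inflammatory genes tested, 2 passed as higher, Cxcl1 (1.11) and Il6 (2.62), and 0 as lower, near the share of all genes, and the summed TPM of the list differed between replicate numbers far more than between groups. Their part in the values of the 10 matrix genes was not tested.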

How the data were processed

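RNA of 3 siNC and 3 siPkm2 cultures was sequenced on the Illumina platform. The deposited tables hold expected counts per gene and TPM made by the authors, for each library. The submitters' processing notes name edgeR and the build mm9 without a role, and the aligner and counter are not given in the sources used here. The table also holds the authors' fold changes and p-values, which were not used.

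Counts were rounded and tested with edgeR 4.0.16 in R 4.3.3 (quasi-likelihood test, TMM factors, filterByExpr, Benjamini-Hochberg over 15269 genes). A call means an adjusted p under 0.05, and for the study's threshold also a fold over 2. DESeq2 1.42.0, limma 3.58.1 on log2(TPM + 1), other scalings and filters, the replicate number as a block and each library or pair left out were alternatives. CPM are TMM-scaled. Library sizes of 22317065 to 25691096 make counting error small for these genes, whose lowest count was 646 (Postn), and no depth figure covers variation between cultures.

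The pairing comes from the data. Deviations from the group means correlated at 0.62, 0.73 and 0.60 for equal replicate numbers and at most 0.13 for others, and the labels do not say what a number shares. No library was a duplicate, since 52.6% to 73.4% of genes differed beyond sampling noise within groups.

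The 10 genes and the lists were chosen with earlier results of these data known. All 10 were named, with Pkm, Col2a1, Acan, Sox9, the 5 genes most correlated with Col1a1 and, per list, up to 4 genes of lowest p among those past the adjusted p in the blocked fit, or 2 of lowest p in the fit without a block. Positions, 3′ UTRs and sequences came from GENCODE M21 on GRCm38 and from RefSeq (GRCm38.p6), matched by gene ID or symbol, and 94.0% of the IDs in the table were in GENCODE M21. The deposited tables give no coordinates.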

Additional observations from a re-analysis of the deposited data

How the results depend on the processing

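The log2 fold changes of the 10 genes gave 180 values under 18 alternatives. Of these, 150 kept their direction and side of the threshold, 24 passed where the fit without a block did not, and 6 reversed, none of them in a fit that kept all libraries. The reversals were Postn without siNC replicate 1 (-0.03), siNC replicate 2 (-0.15), siPkm2 replicate 1 (-0.01) or siPkm2 replicate 3 (-0.11) and with the replicate block without replicate 1 (-0.29), and Col1a2 without siNC replicate 3 (0.081). With libraries left out in turn, Postn ran from -0.15 to 1.24 and Col1a2 from -0.70 to 0.081, Col1a1 to Col2a1 ran from -1.16 to 0.081 on the log2 scale, turning without siPkm2 replicate 1, and Col5a1 to Col5a2 from -0.59 to 0.085, turning without siNC replicate 3 (0.085) and siPkm2 replicate 2 (0.01). The cause was not tested. Genes past the adjusted p and the 2-fold change numbered 0 without a block, 890 with the replicate block, 900 with the block and RLE factors, 3 with upper-quartile factors, 9 with no filter, 3 with at least 10 counts in every library, 430 in DESeq2, 1023 in DESeq2 with the block and 1 in limma. They ran from 0 to 105 with a library left out, 105 being without siNC replicate 2, and from 0 to 1639 with the block and a pair left out. Of the 10 genes, 2 were called in each of the block, block with RLE, DESeq2 and DESeq2 block fits, and 0 to 2 with the block and a pair left out. Past the adjusted p alone were 4, 4, 3 and 6 of them in those 4 fits, and 0 to 7 with a pair left out. The median of the 10 ran from -0.057 to 0.30 with a library left out. The numbers of list genes past the adjusted p, 0 in each list without a block, were with the block 14 for other fibre genes, 3 for cartilage matrix, 1 for transcription factors, 9 for receptors, 6 for fibroblast markers, 3 for TGF-beta and YAP-SRF, 4 for collagen assembly, 4 for interferon and 2 for inflammatory genes. Leaving out a pair, an alternative added after the data were seen, took these to 0 without replicate 1 or 3 and to 17, 7, 2, 12, 11, 7, 9, 10 and 8 without replicate 2. With 3 libraries a group, the smallest exact permutation p is 0.1.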
